A study of Mus musculus with 12 samples.

Results

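Genes whose products copy, package, separate and divide the genome were followed in mouse skin after an injection of RNAdjuvant. A set of 45 such genes was listed by symbol, and each was read from a probe set that the array's annotation gives to that gene alone. Where a gene had several such probe sets, the brightest of them on average over the 12 arrays was used. In this way 44 of the 45 genes were measured, out of 19938 genes in all. Ccnb1, which encodes cyclin B1, had no probe set of its own in the annotation used.

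The skin came from female mice of the Balb/c strain, and 4 groups of 3 samples were compared. One group was untreated, and the others were taken 1.5 h, 6 h or 24 h after RNAdjuvant, an adjuvant made of non-coding RNA and a cationic peptide, was put into the dermis at a dose that the labels write as 25 mg, a unit that could not be checked here. The labels call the samples biological replicates. The untreated mice were the only controls, so an effect of the needle or of the carrier cannot be told apart from one of the RNA. Each value is a log2 intensity from an Affymetrix Mouse Gene 1.0 array.

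A dividing cell first copies its DNA. The Mcm2 to Mcm7 proteins form the helicase that opens the double helix, Pcna clamps the polymerase to it, and Rrm2 and Tyms supply nucleotides. Cyclins then switch on cyclin-dependent kinases, the kinetochore ties chromosomes to the spindle, checkpoint kinases hold the cell until every chromosome is attached, and anillin and its partners pinch the cell apart. In resting adult skin most such cells lie in the basal layer of the epidermis and, during hair growth, in the hair matrix. Transcripts of the mitotic genes are held low in resting cells through a promoter sequence called the cell cycle homology region (CHR), bound by the DREAM complex of pocket proteins, while many replication genes carry E2F sites.

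Promoter windows are shown first because these genes are known as a group for what their promoters share. The windows are those of RefSeq on mouse build GRCm38.p6 and run from 250 bases before to 50 bases after an annotated start, written 5′ to 3′ on the gene's own strand. Capitals mark CHR elements, searched as TTTGAA and as the variant form TTCGAA. They also mark CCAAT boxes, searched as those letters, and E2F elements, searched as TTTCGCGC, as TTTGGCGC, as TTTCCCGC and as TTTGCCGC. Both strands were searched, and TTCGAA, its own reverse complement, was counted once. Anln (chr9:22389157-22389456, minus strand), Kif11 (chr19:37376132-37376431, plus strand), Top2a (chr11:99024140-99024439, minus strand) and Ccnb2 (chr9:70421505-70421804, minus strand) are shown as mitotic genes with large falls at 6 h, and Mcm5 (chr8:75109259-75109558, plus strand) as a replication gene.
Anln: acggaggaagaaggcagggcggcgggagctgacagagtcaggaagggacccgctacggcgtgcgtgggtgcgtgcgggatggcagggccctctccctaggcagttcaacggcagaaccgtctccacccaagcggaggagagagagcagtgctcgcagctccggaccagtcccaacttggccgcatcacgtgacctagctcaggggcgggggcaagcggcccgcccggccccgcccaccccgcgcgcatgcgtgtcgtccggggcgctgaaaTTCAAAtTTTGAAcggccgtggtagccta
Kif11: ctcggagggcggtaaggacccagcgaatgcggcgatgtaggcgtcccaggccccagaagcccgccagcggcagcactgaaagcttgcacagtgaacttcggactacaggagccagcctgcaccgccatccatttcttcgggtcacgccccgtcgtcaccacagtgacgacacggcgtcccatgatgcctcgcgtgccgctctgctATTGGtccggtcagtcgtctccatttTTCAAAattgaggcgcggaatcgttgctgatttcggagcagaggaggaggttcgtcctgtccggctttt
Top2a: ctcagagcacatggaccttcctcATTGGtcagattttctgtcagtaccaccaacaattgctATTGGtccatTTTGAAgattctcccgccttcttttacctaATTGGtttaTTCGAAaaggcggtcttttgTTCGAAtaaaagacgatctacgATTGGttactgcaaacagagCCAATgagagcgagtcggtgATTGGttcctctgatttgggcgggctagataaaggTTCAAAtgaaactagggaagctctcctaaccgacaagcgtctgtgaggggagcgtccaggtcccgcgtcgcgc
Ccnb2: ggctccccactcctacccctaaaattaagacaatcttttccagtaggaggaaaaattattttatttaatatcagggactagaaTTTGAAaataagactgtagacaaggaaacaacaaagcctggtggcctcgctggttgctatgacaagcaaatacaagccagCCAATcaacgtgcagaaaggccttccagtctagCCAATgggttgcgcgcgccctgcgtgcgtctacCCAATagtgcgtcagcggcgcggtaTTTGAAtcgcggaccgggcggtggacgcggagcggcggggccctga
Mcm5: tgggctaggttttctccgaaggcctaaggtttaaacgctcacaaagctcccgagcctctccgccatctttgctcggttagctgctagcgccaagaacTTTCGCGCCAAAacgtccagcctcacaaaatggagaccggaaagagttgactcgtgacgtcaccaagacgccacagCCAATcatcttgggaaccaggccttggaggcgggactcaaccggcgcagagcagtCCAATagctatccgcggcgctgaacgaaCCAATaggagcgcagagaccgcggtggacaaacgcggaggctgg

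In the Anln window the capitals are a pair of CHR elements, 1 on each strand, at bases 272 to 277 and 279 to 284. The Kif11 window has a CCAAT box at bases 206 to 210 and a CHR element at bases 232 to 237, both on the opposite strand. Top2a has 4 CHR elements and 6 CCAAT boxes, and Ccnb2 has 2 CHR elements and 3 CCAAT boxes. Mcm5 has no CHR element, 3 CCAAT boxes, and E2F elements on both strands that overlap each other over bases 98 to 109.

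Windows were found for 37 of the 44 genes, 40 windows in all, since Mcm7, Ect2 and Prc1 have 2 each. A CHR element was present in 27 of these 40 windows (67.5%), against 19.2% of all 32851 windows of the same length. CCAAT boxes were present in 30 of 40 (75.0%, against 37.4%), and E2F elements in 7 of 40 (17.5%, against 2.27%). The 9 windows of replication genes held CHR elements in 2 and E2F elements in 4. The 31 windows of the other genes held CHR elements in 25 and E2F elements in 3. All 7 windows of cytokinesis genes, which come from 5 genes, had a CHR element. Among genes called lower at 6 h, 14 of 17 windows held a CHR element and 0 of 17 an E2F element. Among genes not called, these counts were 13 of 23 and 7 of 23. The 2 windows of Ect2 overlap almost wholly, as do those of Prc1, so elements of these called genes entered 2 times. By gene, a CHR element was present in 12 of 15 called and 13 of 22 not called. An E2F element was present in 0 of 15 and 7 of 22. The windows of genes not called include all 9 of the replication genes, so this split is in part a split by role. It also rests on the main fit: Mcm3 and Mcm5, whose windows hold E2F elements, were called at 6 h under some alternatives. In the last 100 bases of the window, a stretch chosen after the positions were seen, the CHR element stood on the gene's own strand in 18 of 40 windows (45.0%), against 3.09% of all windows. Those 18 windows come from 16 genes. These are matches of letters, and no binding was measured.

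At 6 h after the injection, 16 of the 44 genes were lower than in untreated skin and 0 were higher, at a Benjamini-Hochberg adjusted p under 0.05 over all genes in limma. Of all 19938 genes, 2.71% were called lower and 3.38% higher. At an unadjusted p under 0.05 in limma 33 of the 44 were lower, against 14% of all genes. The median difference over the 44 genes was -0.42 on the log2 scale, with a range from -0.91 for Anln to 0.03 for Ccne1, against a median of -0.04 for all genes. In 42 of the 44 the 6 h mean lay below the untreated mean, as it did for 56.2% of all genes. In 33 of the 44 all 3 arrays at 6 h lay below all 3 untreated arrays, as they did for 19.3% of all genes. In a whole biopsy, fewer dividing cells and less RNA per dividing cell cannot be told apart.

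The fall was present in each of the 3 samples at 6 h, but not to one extent. The median difference of the 44 genes from the untreated mean was -0.35 in replicate 1, -0.60 in replicate 2 and -0.38 in replicate 3. The untreated arrays lay at -0.01, 0.07 and -0.07, the 1.5 h arrays at -0.15, -0.15 and -0.13, and the 24 h arrays at -0.18, -0.10 and -0.09. Replicate 2 at 6 h was the lowest of the 12 arrays for 30 of the 44 genes, and for 15.3% of all genes. Leaving out any 1 array left between 11 and 16 genes called, with 11 called without untreated replicate 2 and 11 without 6 h replicate 2.

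**Figure D1:**
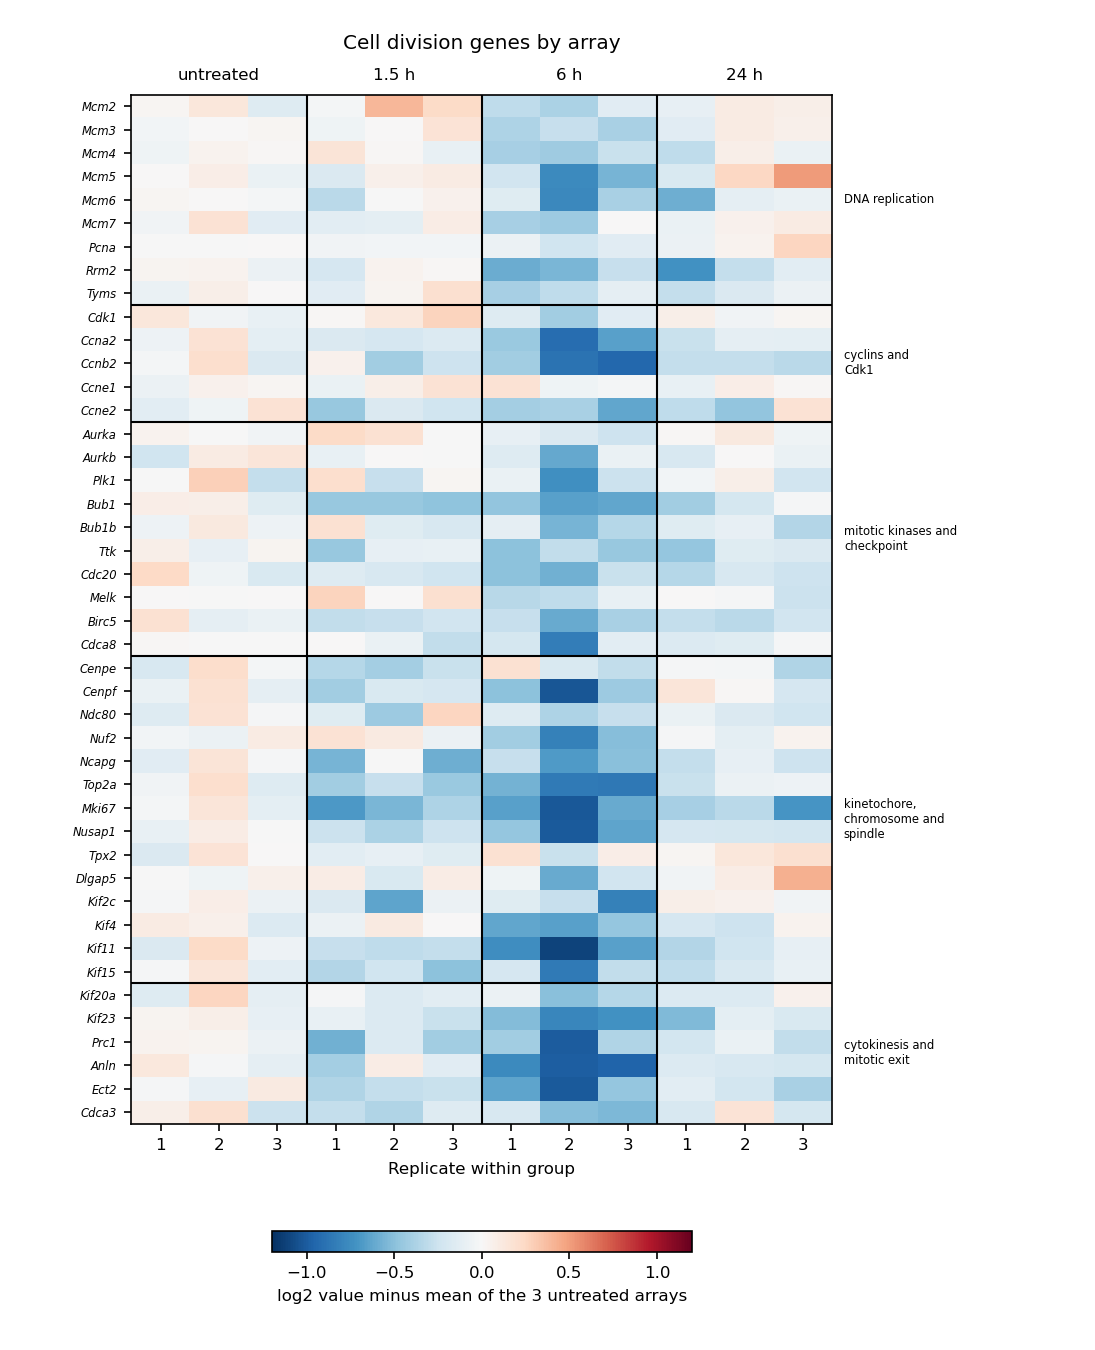
Each row is 1 of the 44 measured cell division genes and each column 1 array, and the colour gives the log2 value minus the mean of the 3 untreated arrays, with rows grouped by role. The blue block at 6 h spans every role, is darkest in replicate 2, and is much paler at 24 h.

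Genes of cytokinesis had the lowest median at 6 h, -0.63 over 6 genes, and 4 of the 6 were called lower. Anln encodes anillin, a scaffold of the contractile ring, and read 7.37, 7.23 and 7.14 in untreated skin, 6.84, 7.34 and 7.11 after 1.5 h, 6.48, 6.25 and 6.29 after 6 h, and 7.08, 7.05 and 7.03 after 24 h. The 3 arrays at 6 h lay below all 9 others. Anln fell by 0.91 (SE 0.13, adjusted p = 0.000487) at 6 h, a 1.87-fold lower level. Kif23, a kinesin of the central spindle, read 6.64, 6.67 and 6.50 in untreated skin, 6.51, 6.44 and 6.34 after 1.5 h, 6.08, 5.82 and 5.87 after 6 h, and 6.07, 6.49 and 6.41 after 24 h, so that its 6 h arrays lay below every untreated array but overlapped the 24 h arrays. It fell by 0.68 (SE 0.12, adjusted p = 0.00484).

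Ect2, the exchange factor that activates RhoA at the division plane, read 6.21, 6.13 and 6.33 in untreated skin, 5.86, 5.93 and 5.95 after 1.5 h, 5.59, 5.21 and 5.76 after 6 h, and 6.10, 6.00 and 5.83 after 24 h. All 9 arrays of treated skin lay below the untreated ones, and the 6 h arrays below all others. Ect2 fell by 0.70 (SE 0.13, adjusted p = 0.00617) at 6 h. Prc1, which bundles the microtubules of the central spindle, read 6.29, 6.28 and 6.18 in untreated skin, 5.68, 6.09 and 5.83 after 1.5 h, 5.83, 5.25 and 5.89 after 6 h, and 6.03, 6.17 and 5.95 after 24 h, with the 1.5 h and 6 h arrays overlapping. It fell by 0.59 (SE 0.16, adjusted p = 0.0436), a call that was lost when any of 7 arrays was left out (without 6 h replicate 2 its adjusted p was 0.14). Kif20a, another kinesin of cytokinesis, and Cdca3, a trigger of mitotic entry, differed by -0.31 and -0.41 and were not called (adjusted p = 0.205 and 0.116).

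Among 14 genes of the kinetochore, the chromosomes and the spindle, 7 were called lower at 6 h, and the median was -0.53. Kif11, the motor that pushes the spindle poles apart, read 6.44, 6.84 and 6.55 in untreated skin, 6.33, 6.31 and 6.32 after 1.5 h, 5.87, 5.50 and 5.95 after 6 h, and 6.26, 6.37 and 6.51 after 24 h. Its 6 h arrays lay below all 9 others, and it fell by 0.84 (SE 0.14, adjusted p = 0.00192) at 6 h. Top2a, the topoisomerase that untangles sister chromosomes, read 7.46, 7.69 and 7.34 in untreated skin, 7.08, 7.22 and 7.05 after 1.5 h, 6.93, 6.65 and 6.64 after 6 h, and 7.23, 7.43 and 7.44 after 24 h. Again the 6 h arrays were below all others, and Top2a fell by 0.76 (SE 0.12, adjusted p = 0.00178). A second Top2a probe set had a mean of 3.05 over the 12 arrays against 7.18 for the one used, and differed by 0.07 at 6 h. With the 2 probe sets averaged Top2a was no longer called (adjusted p = 0.219).

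Mki67, which encodes the Ki-67 antigen used to stain cycling cells, read 7.35, 7.52 and 7.26 in untreated skin, 6.68, 6.83 and 7.003 after 1.5 h, 6.72, 6.36 and 6.77 after 6 h, and 6.98, 7.05 and 6.67 after 24 h. All 9 treated arrays lay below the lowest untreated array. Mki67 fell by 0.76 (SE 0.14, adjusted p = 0.00586) at 6 h, while its differences at 1.5 h (-0.54, adjusted p = 0.0722) and 24 h (-0.48, adjusted p = 0.0954) did not pass. Nusap1, a microtubule binding protein of the spindle, read 6.20, 6.38 and 6.29 in untreated skin, 6.04, 5.91 and 6.04 after 1.5 h, 5.82, 5.28 and 5.66 after 6 h, and 6.09, 6.08 and 6.07 after 24 h. It fell by 0.70 (SE 0.13, adjusted p = 0.00405) at 6 h, with the 6 h arrays below all others and the 24 h arrays between the 1.5 h and the untreated ones.

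Cenpf, a protein of the outer kinetochore, read 5.73, 5.99 and 5.70 in untreated skin, 5.39, 5.63 and 5.60 after 1.5 h, 5.31, 4.78 and 5.37 after 6 h, and 5.95, 5.82 and 5.61 after 24 h. Nuf2, a subunit of the Ndc80 complex that grips microtubules, read 5.04, 5.01 and 5.17 in untreated skin, 5.25, 5.18 and 5.01 after 1.5 h, 4.66, 4.26 and 4.56 after 6 h, and 5.06, 4.96 and 5.12 after 24 h. Kif4, a chromosome-bound kinesin, read 5.87, 5.83 and 5.61 in untreated skin, 5.70, 5.87 and 5.78 after 1.5 h, 5.15, 5.12 and 5.31 after 6 h, and 5.56, 5.52 and 5.81 after 24 h. For all 3 of these genes the 6 h arrays lay below the other 9. Cenpf fell by 0.65 (SE 0.16, adjusted p = 0.0258), but was not called without any 1 of the 3 untreated arrays or without 6 h replicate 2, where its adjusted p was highest at 0.0934. Nuf2 fell by 0.58 (SE 0.12, adjusted p = 0.0102), and was lost without untreated replicate 3 (adjusted p = 0.0531). With all values raised to a floor of 5, which lies above its 6 h arrays, its fall was 0.075 and was not called (adjusted p = 0.627). Kif4 fell by 0.58 (SE 0.11, adjusted p = 0.00824) and kept its call without any 1 array.

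The other 7 genes of this role were not called at 6 h. Their differences were -0.48 for Ncapg, a condensin subunit, -0.45 and -0.41 for the kinesins Kif15 and Kif2c, -0.30 for the spindle factor Dlgap5, -0.27 for Ndc80, -0.10 for the kinetochore motor Cenpe and 0.00 for Tpx2, which activates Aurora A. The 95% interval for Tpx2, -0.27 to 0.27, left out falls as large as those of the called genes of its role. Its 6 h arrays, 6.21, 5.76 and 6.10, overlapped the untreated ones, 5.85, 6.19 and 6.03.

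**Figure D2:**
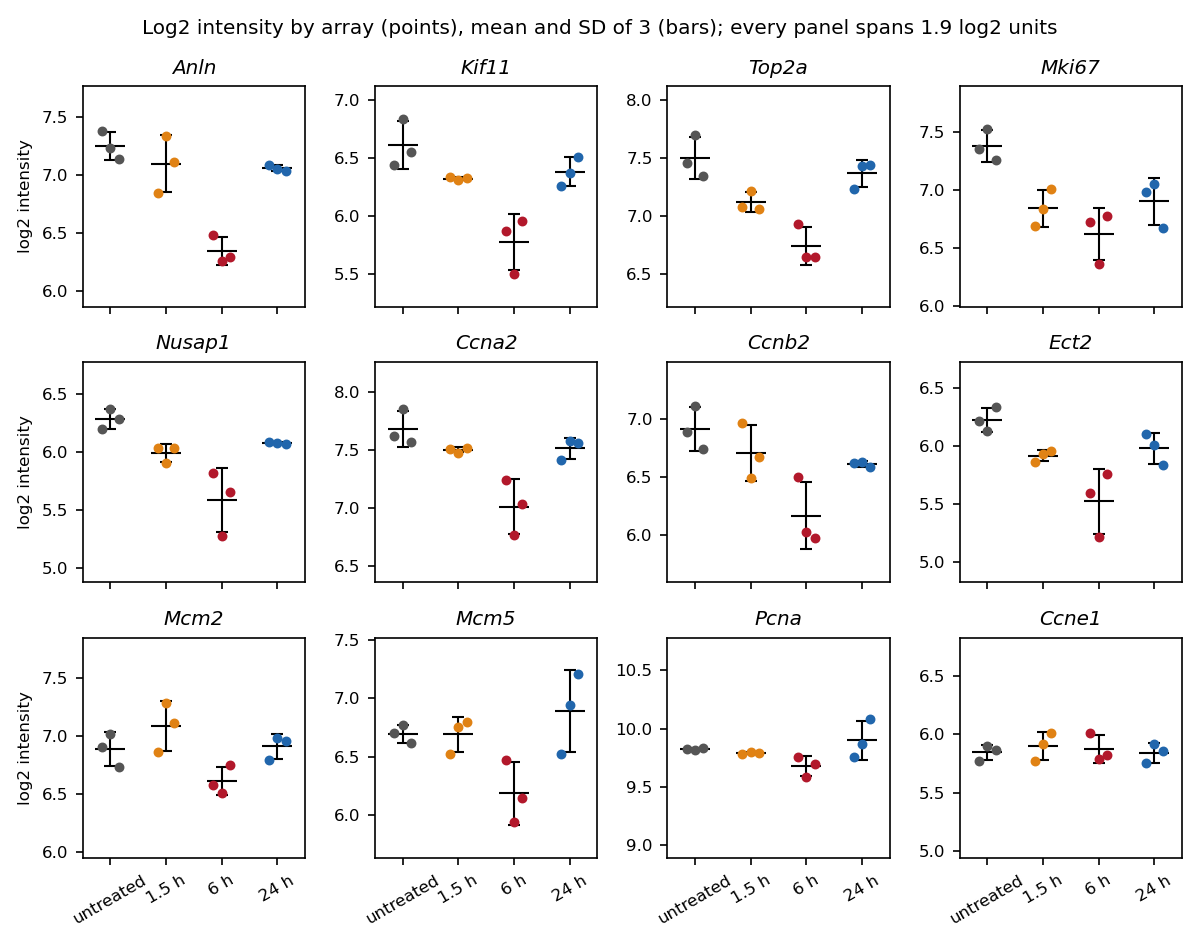
Points are log2 intensities of single arrays for 12 genes in untreated skin and at 1.5 h, 6 h and 24 h, with the mean and SD of 3 arrays as bars; every panel spans the same range on the log2 scale. In the upper 8 panels the 6 h points are the lowest or among the lowest, while Pcna and Ccne1 move little.

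Of Cdk1 and the measured cyclins, 5 genes with a median of -0.47 at 6 h, Ccna2 and Ccnb2 were called lower. Ccna2 encodes cyclin A2 of S phase and early mitosis, and read 7.62, 7.86 and 7.57 in untreated skin, 7.51, 7.48 and 7.52 after 1.5 h, 7.24, 6.77 and 7.03 after 6 h, and 7.41, 7.58 and 7.56 after 24 h. Ccnb2, a cyclin of mitotic entry, read 6.89, 7.11 and 6.74 in untreated skin, 6.97, 6.50 and 6.67 after 1.5 h, 6.50, 6.03 and 5.98 after 6 h, and 6.63, 6.63 and 6.59 after 24 h. Both lay below all untreated and all 24 h arrays at 6 h. Ccna2 fell by 0.67 (SE 0.13, adjusted p = 0.00574) and Ccnb2 fell by 0.75 (SE 0.16, adjusted p = 0.012). The call of Ccnb2 was lost without untreated replicate 2, 6 h replicate 2 or 6 h replicate 3, with adjusted p no higher than 0.0597.

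Cdk1, the kinase that these cyclins switch on, read 6.14, 5.96 and 5.92 in untreated skin, 6.03, 6.14 and 6.28 after 1.5 h, 5.85, 5.59 and 5.87 after 6 h, and 6.08, 5.97 and 6.04 after 24 h. Its 6 h arrays lay below the untreated ones, but the difference of -0.24 did not pass (adjusted p = 0.224). Ccne1, a cyclin of the step from G1 into S phase, read 5.77, 5.90 and 5.86 in untreated skin, 5.77, 5.92 and 6.02 after 1.5 h, 6.02, 5.79 and 5.82 after 6 h, and 5.75, 5.92 and 5.86 after 24 h, with all groups overlapping. Its difference of 0.03 had a 95% interval of -0.19 to 0.26, and its range over the 12 arrays, 0.26, was the smallest of the 44 genes. Ccne2, its close relative, differed by -0.47 (adjusted p = 0.0921).

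Mitotic kinases and checkpoint genes had a median of -0.37 at 6 h, and 3 of the 10 were called lower. Bub1, a checkpoint kinase at the kinetochore, read 5.10, 5.09 and 4.88 in untreated skin, 4.57, 4.57 and 4.54 after 1.5 h, 4.55, 4.38 and 4.40 after 6 h, and 4.61, 4.81 and 5.01 after 24 h. Its 1.5 h arrays lay below the untreated ones and overlapped the 6 h arrays. Bub1 fell by 0.58 (SE 0.12, adjusted p = 0.00869) at 6 h, and its difference at 1.5 h was -0.47 (adjusted p = 0.0568). Its values lie near the low end of the scale: with all values raised to a floor of 5, the fall at 6 h was 0.065 and was not called (adjusted p = 0.154).

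Cdc20, the activator of the anaphase-promoting complex, read 6.89, 6.60 and 6.47 in untreated skin, 6.49, 6.46 and 6.41 after 1.5 h, 6.16, 6.08 and 6.38 after 6 h, and 6.31, 6.46 and 6.40 after 24 h. Birc5, or survivin, a subunit of the chromosomal passenger complex, read 7.04, 6.75 and 6.78 in untreated skin, 6.56, 6.58 and 6.63 after 1.5 h, 6.58, 6.26 and 6.47 after 6 h, and 6.58, 6.54 and 6.63 after 24 h. All 9 treated arrays of Birc5 lay below its untreated ones, and the 6 h arrays of Cdc20 below its untreated ones. Cdc20 fell by 0.44 (SE 0.12, adjusted p = 0.0472) and Birc5 fell by 0.42 (SE 0.11, adjusted p = 0.0409), and each call was lost when any of 10 of the 12 arrays was left out (adjusted p up to 0.181 and 0.164, both without untreated replicate 1). The other 7, which are the kinases Ttk, Plk1, Bub1b, Aurkb, Melk and Aurka and the passenger subunit Cdca8, differed by -0.41 to -0.17 and were not called.

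None of the 9 replication genes was called at 6 h in the main fit, and the median was -0.35. In limma 7 were lower at an unadjusted p under 0.05, against 14% of all genes. In 7 the groups did not overlap, against 19.3% of all genes. Some were called lower under alternatives. These were Mcm3 with arrays centred, quantile normalization or the floor of 5, and Mcm3, Mcm4 and Rrm2 with only genes above the median signal. Mcm5 was called without 6 h replicate 1, and Rrm2 without 24 h replicate 1. Mcm2 read 6.91, 7.02 and 6.73 in untreated skin, 6.86, 7.29 and 7.11 after 1.5 h, 6.58, 6.51 and 6.75 after 6 h, and 6.79, 6.99 and 6.96 after 24 h. Pcna read 9.82, 9.82 and 9.83 in untreated skin, 9.78, 9.79 and 9.79 after 1.5 h, 9.75, 9.58 and 9.69 after 6 h, and 9.75, 9.87 and 10.08 after 24 h. Mcm2 differed by -0.27 (adjusted p = 0.215), with 6 h and untreated arrays overlapping, and Pcna by -0.15 (adjusted p = 0.394), with all 6 h arrays below the untreated ones. The largest differences were those of Mcm5 (-0.51, adjusted p = 0.0947), Rrm2 (-0.48, adjusted p = 0.0745) and Mcm6 (-0.44, adjusted p = 0.145). Whether replication genes fell less than mitotic genes was not tested.

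**Figure D3:**
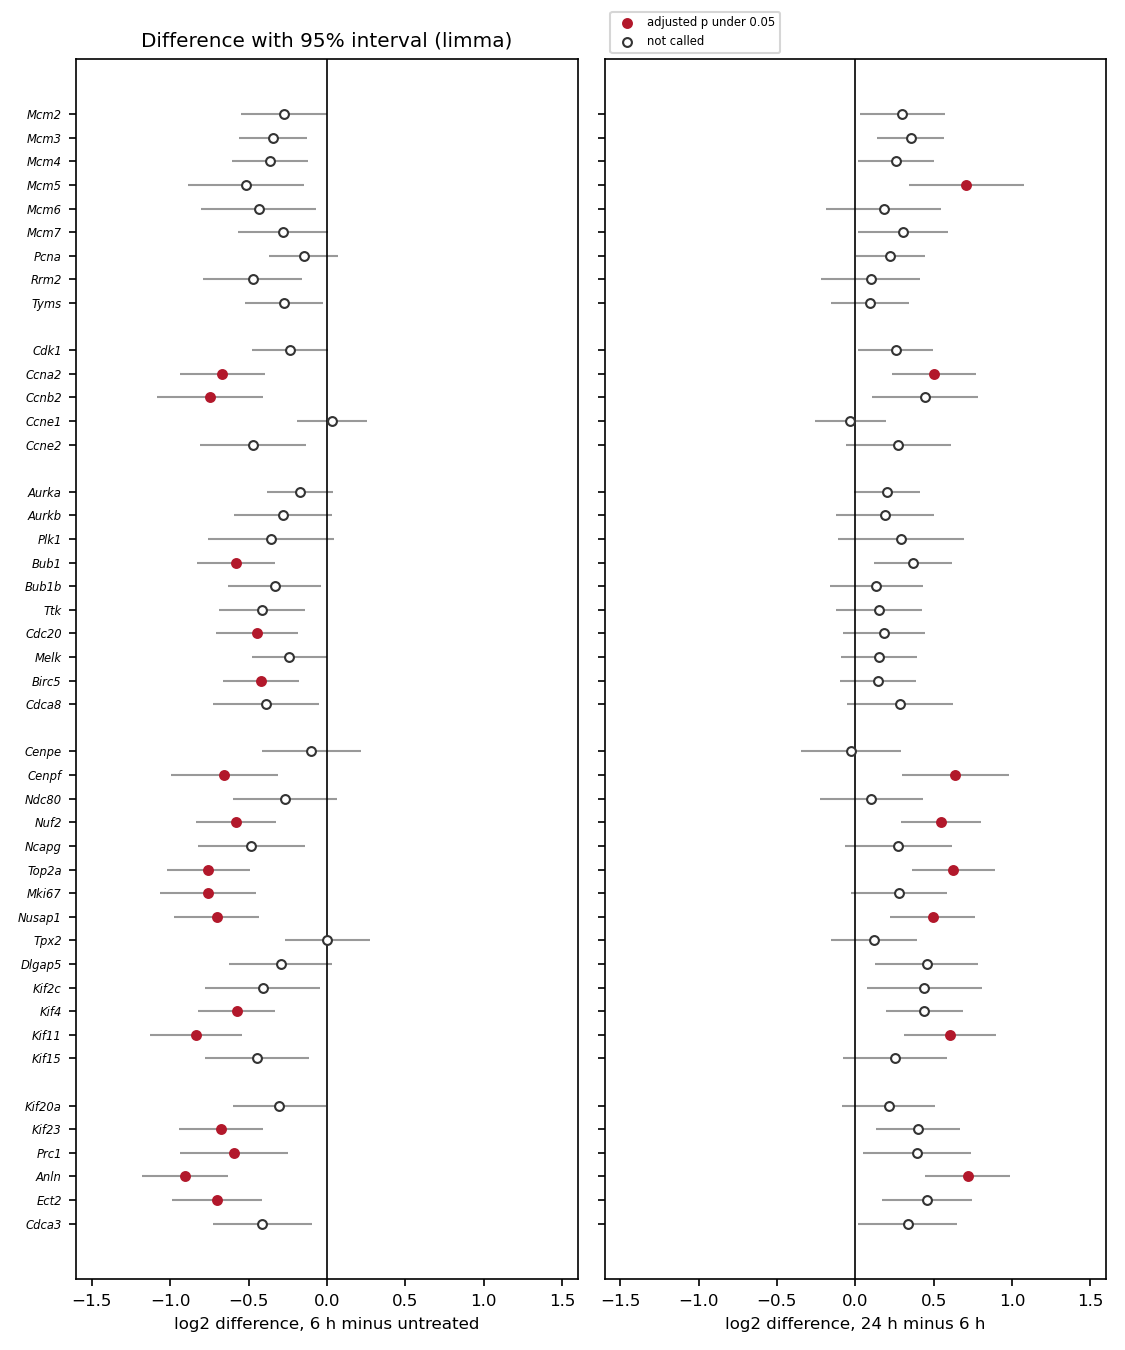
Log2 differences of the 44 genes with 95% intervals from limma, 6 h minus untreated on the left and 24 h minus 6 h on the right, grouped by role in the order replication, cyclins and Cdk1, kinases and checkpoint, kinetochore to spindle, and cytokinesis; filled points have an adjusted p under 0.05. On the left 16 points are filled, all below 0, and on the right 8, all above 0.

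At 1.5 h, 0 of the 44 genes passed in either direction, while 2.2% of all genes did. In the same limma fit 10 had an unadjusted p under 0.05, all lower, and 9.31% of all genes were lower at that p. The median was -0.12, against 0.02 for all genes, and 14 genes lay below the untreated arrays without overlap, against 13.3% of all genes. Medians by role ran from -0.29 for the 14 kinetochore, chromosome and spindle genes to -0.01 for the 9 replication genes. Centring every array on its own median moved the median of all genes at 1.5 h from 0.02 to 0.12 and that of the 44 from -0.12 to -0.02.

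At 24 h, 0 of the 44 genes passed against untreated skin, while 3.36% of all genes did. In the same limma fit 5 had an unadjusted p under 0.05, all lower, against 8.82% of all genes. The median was -0.13, and 14 genes were lower without overlap, against 12.4% of all genes. With arrays centred on their medians the median of the 44 was -0.08 and that of all genes 0.06. Mki67 had the largest difference, -0.48, followed by Rrm2 at -0.38. A value that did not pass does not show a return to the untreated level, and the 95% interval for Mki67 at 24 h ran from -0.78 to -0.17.

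Between 6 h and 24 h, 8 of the 44 genes rose and 0 fell, while 2.03% of all genes rose and 1.41% fell. Anln rose by 0.72 (SE 0.13, adjusted p = 0.00957), Mcm5 by 0.71 (0.0409), Cenpf by 0.64 (0.0446), Top2a by 0.63 (0.0165) and Kif11 by 0.61 (0.0315), with adjusted p in parentheses. Nuf2, Ccna2 and Nusap1 rose by 0.55, 0.50 and 0.49 (adjusted p = 0.0271, 0.0457 and 0.0494). With the floor of 5 only Anln and Top2a passed, and the rise of Nuf2 was 0.059 (adjusted p = 0.794). With the probe sets of Top2a averaged, it rose by 0.21 and was not called. Apart from Mcm5, these had also fallen at 6 h, so 7 genes passed both tests, as 0.522% of all genes did. Both tests share the 6 h arrays. Mcm5 read 6.70, 6.77 and 6.62 in untreated skin, 6.52, 6.76 and 6.80 after 1.5 h, 6.47, 5.94 and 6.14 after 6 h, and 6.52, 6.94 and 7.21 after 24 h, with its highest value in 24 h replicate 3.

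The rises after 6 h rested on few arrays. Without 6 h replicate 2, 0 of the 44 passed, and the adjusted p of Anln was 0.0642. Without 6 h replicate 3, 2 passed, and without 24 h replicate 1, 2 or 3 there were 5, 3 and 1. Without untreated replicate 1, untreated replicate 3, 1.5 h replicate 2 or 1.5 h replicate 3 there were 4 each. With only the 6 h and 24 h arrays in the fit 1 passed.

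From 1.5 h to 6 h, 13 of the 44 genes fell and 0 rose, while 7.8% of all genes fell and 5.47% rose. They were Anln (-0.76, adjusted p = 0.00238), Nuf2 (-0.65, 0.0041), Kif4 (-0.59, 0.00579), Kif11, Ccnb2, Kif23, Ccna2, Nusap1, Mcm2, Mcm3, Mcm4, Cdk1 and Melk. The replication genes Mcm2, Mcm3 and Mcm4 fell by 0.48, 0.39 and 0.39, and Cdk1 and the kinase Melk by 0.38 and 0.39, although none of these 5 was called against untreated skin. Of the 44, 3 were called without 6 h replicate 2, 5 without 1.5 h replicate 1 or 1.5 h replicate 2, and 7 without 1.5 h replicate 3 or 6 h replicate 3. The calls of Anln, Nuf2 and Kif4 held without any 1 array, but with the floor of 5 Nuf2 fell by 0.15 and was not called (adjusted p = 0.2). Centring the arrays on their medians moved the median of all genes from -0.03 to -0.17 and that of the 44 from -0.30 to -0.43, and 21 were then called. Between 1.5 h and 24 h, 0 of the 44 passed, against 2.91% of all genes, with 2 lower and 1 higher at an unadjusted p under 0.05 in limma, against 7.96% and 7.66% of all genes.

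Across the 12 arrays, the mean over a group was lowest at 6 h for 41 of the 44 genes, against 34.8% of all genes. An F test of all 3 time points at once, against untreated skin, called 13 of the 44, against 11.4% of all genes, and 5 without 6 h replicate 2. In all, 22 genes passed in some comparison of 2 groups and 22 in none.

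Other genes of the cycle, read from lists of the same pathway that hold none of the 44, shared part of this course. Of 91 further genes of G2, mitosis and cytokinesis, 21 were lower at 6 h, 1 was higher and 69 did not pass, with a median of -0.31. Of all genes, 2.71% were lower and 3.38% higher. Without overlap, 53 of the 91 were lower, against 19.3% of all genes. The largest falls were those of Cenpk (-1.06, adjusted p = 0.00124) and Cenph (-0.88, adjusted p = 0.00626), subunits of the inner kinetochore. Pttg1, or securin, which guards the cohesion of sister chromosomes, was the gene that rose (0.84, adjusted p = 0.00405), from 6.72, 6.44 and 6.43 in untreated skin to 7.66, 7.34 and 7.10 at 6 h, with no overlap. These 3 calls held without any 1 array. The count of falls dropped to 13 without untreated replicate 1 or 6 h replicate 2, and to 12 without untreated replicate 2 or with the floor of 5, where the fall of Cenpk was 0.54 and still called.

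Of 54 further genes of G1, S phase entry and replication, 1 was lower at 6 h and 53 did not pass, with a median of -0.26. Without overlap, 28 of the 54 were lower, against 19.3% of all genes. The 1 gene called is 1.85% of the list, below the 2.71% of all genes called lower. Uhrf1, which couples DNA methylation to replication, was that gene (-0.64, adjusted p = 0.026), and lost its call without any of 4 arrays (adjusted p up to 0.092, without untreated replicate 2). The count of falls in this list was between 0 and 5 when 1 array was left out. It was 0 without untreated replicate 1 or 6 h replicate 2, 2 without 24 h replicate 1, 3 without 1.5 h replicate 1 or 6 h replicate 1, and 5 without 24 h replicate 3. With all arrays but only genes above the median signal it was 8, with arrays centred 2, and with quantile normalization or the floor of 5 it was 3.

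Inhibitors of the cycle and p53 targets went both ways at 6 h: of 25 measured, 3 rose, 2 fell and 20 did not pass. Among all genes 3.38% rose and 2.71% fell. Rbl1, the pocket protein p107, read 6.35, 6.27 and 6.18 in untreated skin, 6.22, 6.24 and 6.10 after 1.5 h, 7.35, 7.05 and 6.96 after 6 h, and 6.22, 6.64 and 6.68 after 24 h, and rose by 0.85 (adjusted p = 0.0017). Its 6 h arrays lay above all 9 others, and from 6 h to 24 h it fell by 0.61 (adjusted p = 0.0315). Plk2, a stress-induced kinase, rose by 0.80 (adjusted p = 0.0034), and Gadd45b, a stress gene, by 0.69 (adjusted p = 0.0171). Sesn1, a sestrin, fell by 0.65 (adjusted p = 0.0163), as did Rbl2, the pocket protein p130, by 0.43 (adjusted p = 0.0149); Rbl2 was named after its value was seen. The calls of Rbl1 and Plk2 at 6 h held without any 1 array. Those of Gadd45b and Sesn1 were each lost without any of 3 arrays, with adjusted p up to 0.0828 without untreated replicate 3 and 0.0771 without untreated replicate 1. The falls in this list came to 0 without untreated replicate 1, 6 h replicate 2 or 6 h replicate 3, and without 6 h replicate 1 the list had 4 falls and 5 rises.

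At 1.5 h these lists held single calls. Cdc25b, a phosphatase that activates Cdk1, was lower by 0.54 (adjusted p = 0.0357), Ccng2, an atypical cyclin, by 0.57 (0.0469), and Cdkn2d, an inhibitor of Cdk4 and Cdk6, was higher by 0.44 (0.0424), with adjusted p in parentheses. These were lost without any of 5, 8 and 10 arrays, with adjusted p up to 0.126, 0.159 and 0.182, and those of Cdc25b and Ccng2 also with arrays centred. They were 1 of 91 genes of G2 and mitosis and 2 of 25 inhibitors, beside 0 of 54 genes of G1 and S phase. The share of all genes called at 1.5 h was 2.2%, and at 24 h it was 3.36%. At 24 h the single call in these 3 lists was Cdca5, or sororin, a cohesin factor, which was lower by 0.56 (adjusted p = 0.00664) and kept its call without any 1 array.

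Between 1.5 h and 6 h, 14 of the 91 genes fell and 1 rose, 9 of the 54 fell and 2 rose, and 4 of the 25 fell and 1 rose. Among all genes 7.8% fell and 5.47% rose. With 1 array left out the falls ranged from 7 to 16, 3 to 12 and 2 to 5. The lowest counts were those without 6 h replicate 2 (7, 3 and 2) and without 1.5 h replicate 2 (8, 5 and 2). Without 1.5 h replicate 3 there were 9 falls among the 91, and without 6 h replicate 3 there were 5 among the 54. With arrays centred on their medians the falls came to 28, 25 and 9, and with quantile normalization to 19, 16 and 3.

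From 6 h to 24 h, 7 of the 91 genes rose and 0 fell, led by Depdc1a (0.70), the mitotic entry regulator Fbxo5 (0.66) and Cenpa (0.63), the histone of the centromere. Among all genes 2.03% rose and 1.41% fell. Of the 54, Rfc2 and Pold2, parts of the clamp loader and of polymerase delta, rose by 0.68 and 0.47, while Tk1, thymidine kinase, and Cdk6, a G1 kinase named after its value was seen, fell by 0.62 and 0.46. Of the 25 inhibitors and p53 targets, Rbl1 and Plk2 fell, Plk2 by 0.58. In all 3 lists 0 genes passed without 6 h replicate 2 or without 24 h replicate 3, and 0 of the 54 without 6 h replicate 3. Both falls among the 25 were also lost without 24 h replicate 1, as were both among the 54. The 7 rises came to 1 without 6 h replicate 3, 1 without 24 h replicate 2, 3 without untreated replicate 3, 4 without untreated replicate 2 or 1.5 h replicate 2, and 12 without 6 h replicate 1. They came to 18 with arrays centred, 12 with quantile normalization or only genes above the median signal, and 1 with the floor. Among the 54, 7 rose with arrays centred.

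Markers of the tissue were in place, and those of some cell types differed between the arrays. The keratins of the epidermis read high throughout, with Krt5, the basal keratin, at 12.12, 12.03 and 12.06 in untreated skin and 11.98, 11.94 and 12.07 at 6 h. Over 10 epidermal markers the mean level was 10.94 to 11.01 in untreated arrays, 10.72 to 11.00 at 1.5 h, 10.75 to 10.90 at 6 h and 10.63 to 10.77 at 24 h, and 0 of 10 passed at 6 h. All 10 lay below the untreated mean at 6 h (median -0.10), as did 56.2% of all genes, and 2 had an unadjusted p under 0.05 in limma. At 24 h 9 of the 10 were lower without overlap, against 12.4% of all genes. At 24 h Lor and Krt1, genes of the upper layers, were lower by 0.46 and 0.44 (adjusted p = 0.0277 and 0.0436), and those calls were lost without any of 6 and 9 arrays.

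Endothelial markers, from blood vessels, were lower in 2 of the 3 arrays at 6 h. The mean level of 5 such genes was 7.41 to 7.55 in untreated arrays, 7.54, 7.12 and 6.99 at 6 h, and 7.23 to 7.75 at 24 h. At 6 h 5 of 5 lay below the untreated mean (median -0.28, 0 called, 2 at an unadjusted p under 0.05 in limma), and from 6 h to 24 h 5 of 5 were higher (median 0.33, 0 called, 2 at an unadjusted p under 0.05). Their part in the course of the cell division genes was not tested.

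Hair matrix markers, from the follicle's dividing bulb and its inner root sheath, read lower in treated skin. Over 15 markers the mean level was 5.55, 7.67 and 5.90 in the untreated arrays, and 5.14 to 5.38, 5.17 to 5.30 and 5.16 to 5.59 at 1.5 h, 6 h and 24 h. Krt25, an inner root sheath keratin, read 6.51, 10.74 and 7.03 in untreated skin, 4.57, 5.96 and 4.92 after 1.5 h, 4.43, 4.88 and 4.31 after 6 h, and 4.47, 4.77 and 6.36 after 24 h, so untreated replicate 2 was the highest. At 6 h 2 of the 15 fell, Krt25 by 3.55 (adjusted p = 0.024) and Krt71 by 3.26 (adjusted p = 0.0272), and each call was lost without any 1 of the 3 arrays at 6 h (the highest adjusted p was 0.0788 for Krt25 and 0.0968 for Krt71), with the floor of 5, and without both arrays high in Glycam1. Without untreated replicate 2 Krt25 fell by 2.23 and kept its call. At 1.5 h 1 of the 15 was called, Hoxc13 (-0.78, adjusted p = 0.0258 in limma), and that call was lost without any of 5 arrays. The level of these markers at 1.5 h and 24 h was near that at 6 h. Without untreated replicate 2, 11 of the 16 cell division genes kept their call at 6 h. The part of hair matrix tissue in the course of the cell division genes was not tested.

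Lymph node and glandular markers also stood apart. Lymph node and B cell markers averaged 4.23 to 4.79 in 10 arrays, but 7.26 in 1.5 h replicate 1 and 6.96 in 6 h replicate 1, where Glycam1 of lymph node vessels read 11.38 and 10.88. Without those 2 arrays 16 of the 44 genes were called at 6 h, 15 of them among the 16 called with all arrays. Over 8 glandular markers the mean level was 5.63 to 5.80 in untreated skin, 7.44 to 8.55 at 1.5 h, 8.32, 5.59 and 5.49 at 6 h, and 7.22 to 7.77 at 24 h. At 1.5 h all 8 read above untreated skin without overlap and 3 were called, and at 24 h 7 did and 1 was called. Replicates 2 and 3 at 6 h thus read below every 1.5 h and 24 h array in the glandular markers. In the comparisons of 6 h with 1.5 h and with 24 h, glandular content therefore differed as well. Over 10 skeletal muscle markers the mean level was 10.88 to 10.93 in untreated skin, 11.01 to 11.94 at 1.5 h, 10.65 to 11.25 at 6 h and 10.56 to 11.88 at 24 h. From 1.5 h to 6 h 9 of the 10 were lower and 1 was called (median -0.32, against -0.03 for all genes). The part of glandular, lymph node and muscle tissue in the course of the cell division genes was not tested.

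Some markers of killer lymphocytes rose over the same hours. The mean level of 11 T and natural killer cell markers lay between 5.34 and 5.48 in the untreated arrays and between 5.50 and 6.16 at 1.5 h. It lay between 5.79 and 6.46 at 6 h, and between 6.58 and 6.95 at 24 h. The highest arrays at 1.5 h and 6 h were replicate 1 of each, which also read high in lymph node markers. At 24 h 4 of 11 were called higher, led by Gzmb (4.94) and Gzma (4.34), granzymes of killer cells. At 6 h 2 of 11 were higher. Of 8 neutrophil markers, 3 were called higher at 1.5 h, 2 at 6 h and 2 at 24 h. Of 7 monocyte and macrophage markers, 1 was called higher at 1.5 h, 0 at 6 h and 2 at 24 h. Calls in either direction came to 2.2% of all genes at 1.5 h and 3.36% at 24 h, and 3.38% were higher at 6 h. The part of killer lymphocytes, neutrophils, monocytes and macrophages in the levels of the cell division genes was not tested.

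**Figure D4:**
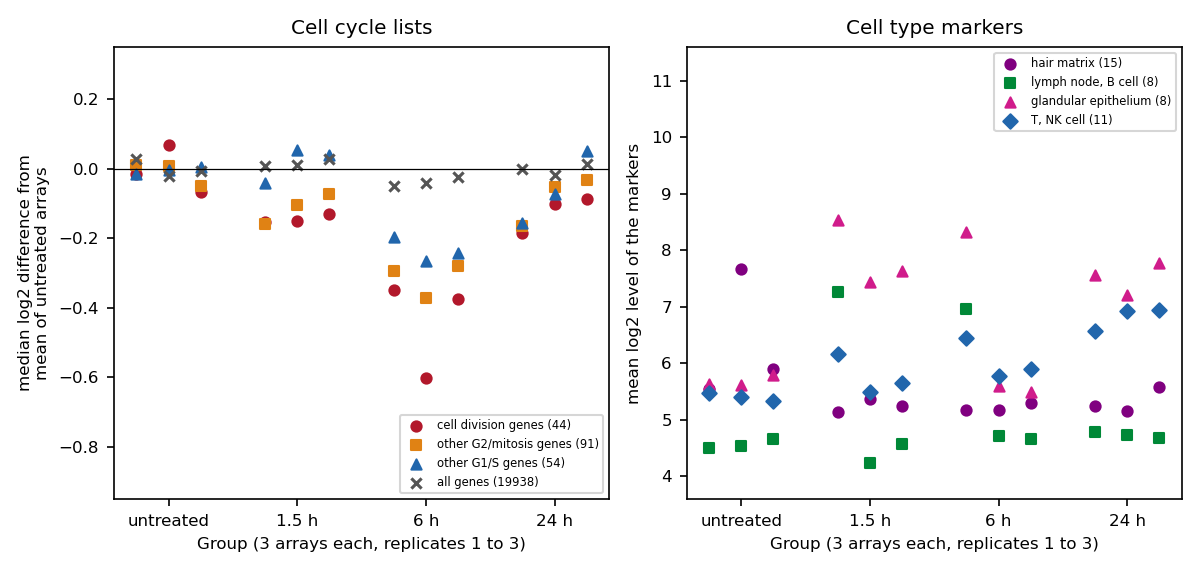
Left, for each of the 12 arrays, the median log2 difference from the untreated mean over the 44 cell division genes, the 91 and 54 other cycle genes and all genes; right, the mean log2 level of 4 lists of cell type markers in the same arrays. On the left the 6 h arrays are lowest, with the 44 genes at -0.60 in replicate 2; on the right hair markers stand high in untreated replicate 2 and lymph node markers in replicate 1 at 1.5 h and 6 h.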

How the data were processed

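The deposited values are log2 intensities that the authors made by the RMA method (Expression Console 1.1 of Affymetrix, per the submitters' processing notes). The table held 35556 probe sets on 12 arrays, with array medians from 5.53 to 5.76 and no detection calls. Arrays of 1 group correlated at 0.980 to 0.987 and arrays of different groups at 0.961 to 0.986. Probe sets with 1 gene symbol in the platform annotation (21789) were kept, the one with the highest mean for each of 999 genes that had several, which left 19938 genes. Of the list genes, 5 were listed under older symbols and measured under current ones.

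A single limma model (lmFit, eBayes; version 3.58.1, R 4.3.3) held all 12 arrays, leaving 8 residual degrees of freedom to which eBayes added 5.24. The 6 pairwise comparisons and an F test were made, two-sided, with Benjamini-Hochberg adjustment over all genes, and a call is an adjusted p under 0.05. An exact permutation test of 3 against 3 cannot go below p = 0.1. The number of arrays limits the precision. P-values measure the spread between samples that the labels call biological replicates. The steps were tested on simulated data.

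The members and lists were chosen with earlier results of these data known. Genes are named, with every array's value, where a member was called against untreated skin, with Mki67, Top2a, Cdk1, Ccne1, Pcna and Mcm2 in any case. For the other cycle lists the 3 largest called differences from untreated skin and the largest called the other way are named. Called markers of cell types are named only in part. Those of neutrophils, of monocytes and macrophages, and of glandular epithelium are given as counts. Alternatives covered the replicate block, each array left out, array scaling, filters, a floor, variance models, probe set rules, a stricter threshold, and models with just the arrays being compared. Promoter windows came from RefSeq on GRCm38.p6.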

Additional observations from a re-analysis of the deposited data

Results flagged for a closer look

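The change relative to untreated skin differed between 1.5 h and 6 h for 13 of the cell division genes, by the limma test of that difference itself, in which the untreated arrays cancel. The change at 6 h minus the change at 1.5 h was -0.48 for Mcm2, -0.39 for Mcm3, -0.39 for Mcm4, -0.38 for Cdk1, -0.49 for Ccna2, -0.54 for Ccnb2 and -0.39 for Melk. It was -0.65 for Nuf2, -0.41 for Nusap1, -0.59 for Kif4, -0.55 for Kif11, -0.50 for Kif23 and -0.76 for Anln. All 13 were lower at 6 h, among them 3 subunits of the replicative helicase that were not called against untreated skin. Of all genes, 7.8% were called lower and 5.47% higher by this test. Without 6 h replicate 2, 3 of the 44 were called.

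Between 6 h and 24 h the change differed for 8 genes by the same kind of test. The change at 24 h minus the change at 6 h was 0.71 for Mcm5, 0.50 for Ccna2, 0.64 for Cenpf, 0.55 for Nuf2, 0.63 for Top2a, 0.49 for Nusap1, 0.61 for Kif11 and 0.72 for Anln. All 8 were higher at 24 h, and 0 of them passed without 6 h replicate 2. Of all genes, 2.03% were called higher and 1.41% lower by this test. Groups of 3 arrays were not searched for single outlying samples.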

How the results depend on the processing

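Counts of the 44 genes called are given under each alternative that moved them by over 1.5 times. Leaving out 1 array in turn gave 0 to 1 calls at 1.5 h (0 with all arrays), 11 to 16 at 6 h (16), 3 to 14 from 1.5 h to 6 h (13), 0 to 9 from 6 h to 24 h (8), and 5 to 14 by the F test (13). At 24 h against untreated skin and against 1.5 h the count was 0 under every alternative run. At an adjusted p under 0.01 there were 10 calls at 6 h, 3 from 1.5 h to 6 h, 1 from 6 h to 24 h and 4 by the F test. Fits of only the groups compared gave 5 from 1.5 h to 6 h and 1 from 6 h to 24 h. Centring arrays on their medians gave 21 from 1.5 h to 6 h and 20 by the F test. Raising values to a floor of 5 gave 2 from 6 h to 24 h and 8 by the F test. Keeping only genes above the median signal gave 1 call at 1.5 h, Mki67. Without the 2 arrays high in Glycam1 there were 7 from 1.5 h to 6 h. At 6 h the count stayed between 12 and 17 under the alternatives other than the stricter threshold and the arrays left out.

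Of 37 calls on single members in the pairwise comparisons, 10 held under every alternative that kept the gene, 13 held without any 1 array, and 0 changed direction. The calls of Kif4 are among the 10, although Kif4 was left out where only genes above the median signal were kept. Ccne1 at 6 h, which was not called, changed sign to -0.01 without untreated replicate 1, to -0.039 without 6 h replicate 1 or without the 2 arrays high in Glycam1, and to -0.0021 with arrays centred; leaving out 1 array gave -0.039 to 0.074.

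Replicate numbers showed no clear pairing of the samples, though these values cannot exclude one. Over 18 pairs of arrays with the same number, deviations from the group means correlated at -0.22 to 0.33. Pairs with different numbers gave -0.28 to 0.24. Of the 18 pairs 4 were over 0.1, and 5 of 12 arrays correlated best with their own number. With the replicate block 14 members were called at 6 h and 4 from 6 h to 24 h. Low signal limits the dimmer genes: with the floor of 5, Bub1 and Nuf2 were not called at 6 h. Cdc20 and Prc1 also lost their calls there, although all their arrays read above 5 and so kept their values.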

Other observations

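Most of the 44 genes varied with one another across arrays. Over the 12 arrays the correlation of each gene with the mean of the other members had a median of 0.76, from 0.15 for Cenpe, with Ccne1 at 0.16, to 0.99 for Ccna2. The median correlation of the 19894 other genes with the members' mean was 0.07. With the group means removed, so that only differences between samples of 1 group remained, the median was 0.51, from -0.11 for Ttk to 0.96 for Ccna2, and 40 of 44 values were above 0, against a median of -0.00 and 50% above 0 for the other genes. Ccne2, Ttk, Melk and Kif2c, at -0.11 to -0.06, did not vary with the rest in this way. These values are descriptions over arrays that share groups and scaling, and genes are not independent replicates. They can rest on few arrays, as 6 h replicate 2 was the lowest of the 12 for 30 of the 44 genes. They were not computed without that array.

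Of 13 measured growth factors and early inducers of the cycle, 1 was called at 1.5 h and at 6 h. The share of all genes called at 1.5 h was 2.2%, and 2.71% were called lower at 6 h. Fgf7, keratinocyte growth factor made by the dermis, was lower by 0.79 at 1.5 h (adjusted p = 0.00535 in limma) and by 0.59 at 6 h (adjusted p = 0.00808), and both calls held without any 1 array. Its arrays read 8.07, 7.89 and 8.25 in untreated skin, 7.23, 7.43 and 7.20 after 1.5 h, 7.57, 7.36 and 7.52 after 6 h, and 7.80, 7.96 and 7.82 after 24 h. Myc, an inducer of growth, differed by 0.14 and 0.15 and was not called. Myc and Ccnd1 were named after their values were seen. Ccnd1, cyclin D1, differed by -0.09 and -0.20.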
